A study of Triticum polonicum with 8 samples.

Results

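A set of 300 genes had higher transcript levels in dwarf Polish wheat roots wherever the supply of calcium and potassium nitrate was raised, whether or not cadmium or zinc was present. The members were chosen from the read counts by this very difference: a mean of at least 1 CPM (counts scaled to equal library totals) over the 8 libraries, and a ratio of at least 4, after 0.1 was added to each CPM, in all 4 pairs of libraries that differ in Ca/K supply alone. Of 124856 genes, 51500 reached the mean of 1 CPM and 348 met every condition, and the 300 with the highest mean CPM form the set. Because the rule used the Ca/K contrast in every pair, the Ca/K ratios below describe the members and carry no test.

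Dwarf Polish wheat is a tetraploid wheat with A and B subgenomes. Each of 8 treatments was represented by 1 library of root RNA from seedlings labelled 4 weeks old, taken after 1 week of treatment. N2 roots received calcium nitrate at 8 mM and potassium nitrate at 10 mM, and N2_Cd, N2_Zn and N2_Cd_Zn roots received the same salts with 80 µM CdCl2, with 500 µM Zn, or with both. N0 roots received calcium nitrate at 4 mM and potassium nitrate at 5 mM, and N0_Cd, N0_Zn and N0_Cd_Zn are their counterparts with the same metal doses. A basal 5 µM Zn was part of the nutrient solution. Since both salts are nitrates, the nitrate computed from these doses was 26 mM in N2 media, against 13 mM in N0 media, so Ca, K and nitrate cannot be told apart. The labels speak of 3 biological replicates per treatment, but each treatment has a single column, so no difference between 2 libraries has a replicate check. Library totals lay between 20000875 and 25241789 counts.

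Roots take up nitrate, potassium and calcium from the medium through dedicated transporters and channels. Nitrate is both a nutrient and a signal that changes root gene expression, calcium serves as a second messenger, and potassium is the main cation of the cell sap. Cadmium has no nutritional role in plants and enters root cells in part through transporters of essential divalent cations, zinc among them. The files do not pair the gene identifiers with names, so no member is given a function here, and the labelled tissue could not be set against marker genes. Identifiers with an arm code, such as 4AL (chromosome 4A, long arm), name gene models of the TGACv1 assembly of bread wheat, a hexaploid with a D subgenome as well. Near-identical copies on the subgenomes can share reads, which makes the value of a single gene uncertain to that extent.

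The members together took up a far larger part of the raised Ca/K libraries. They held 0.791% of the counts in N2 and 1.16% in N2_Cd, 1.26% in N2_Zn and 1.27% in N2_Cd_Zn, against 0.10% in N0, 0.154% in N0_Cd, 0.101% in N0_Zn and 0.0870% in N0_Cd_Zn. Every N2 share was thus above every N0 share. In whole roots, more cells of a type and more RNA per cell cannot be told apart. The 10 members of highest mean CPM supplied 33.8% of the set's summed CPM.

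The typical member was low, not absent, at basal supply. On the FPKM scale (counts per gene length and library total, the scale here on which genes can be compared with each other), the median member stood at 6.38 in N2 and 11.1 in N2_Cd, 8.69 in N2_Zn and 9.53 in N2_Cd_Zn, against 0.615 in N0, 1.08 in N0_Cd, 0.443 in N0_Zn and 0.520 in N0_Cd_Zn. Over all 51500 genes the median FPKM lay between 3.54 and 4.17 in the N2 libraries, against 2.97 to 3.73 in the N0 libraries. The median member therefore lay above the median gene in each N2 library and below it in each N0 library. No member was without reads in any N2 library, which follows from the rule, and none had fewer than 10 counts there. In the N0 libraries, 38 members lacked reads in at least 1 library, 0 lacked them in all 4, and 67 had fewer than 40 counts over the 4 together. For those members the 0.1 CPM added by the rule weighs on the ratio.

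**Figure D1:**
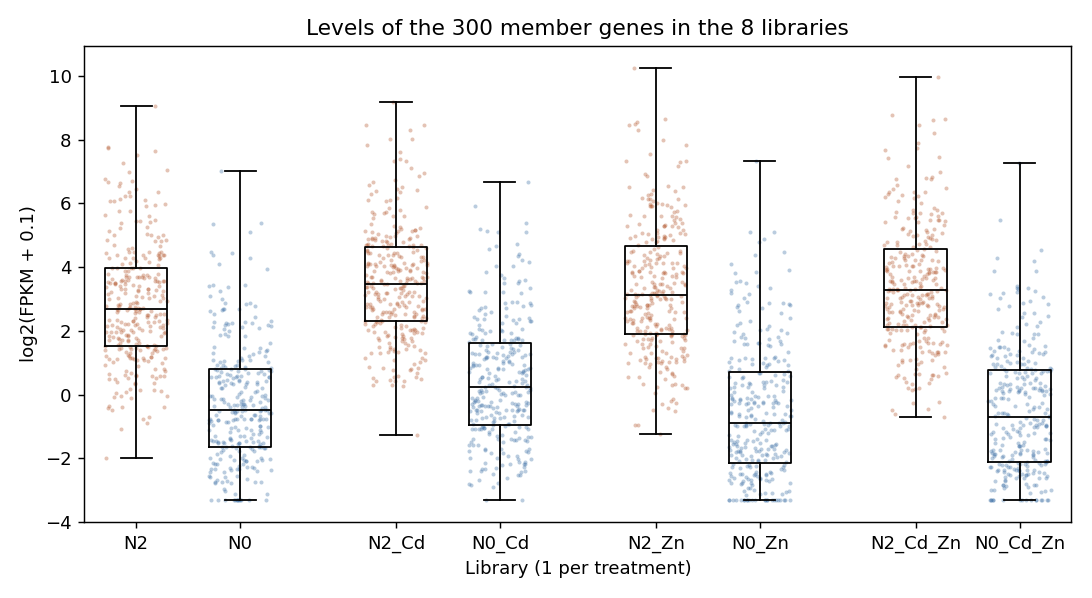
Levels of the 300 members as log2(FPKM + 0.1) in each of the 8 libraries, with raised Ca/K in orange and basal Ca/K in blue; each point is a gene, boxes give the median and quartiles, and whiskers reach the lowest and highest member. The median FPKM is 6.38 to 11.1 in the N2 libraries and 0.443 to 1.08 in the N0 libraries, with N0_Cd the highest of the basal ones.

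Levels of single members spanned a wide range. The mean FPKM over the 8 libraries had a median of 5.10, from 0.513 to 483.6, and the median over the 51500 genes was 3.98. Mean FPKM was at least 10 in 89 members, at least 100 in 7 and under 1 in 11. The 89 more abundant members had a median smallest ratio of 5.12, and the other 211 one of 5.39, so the 2 medians were close.

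TRIAE_CS42_1AL_TGACv1_000820_AA0019750, on arm 1AL and 623 bases long, had the highest mean FPKM. It stood at 526.9 FPKM in N2 and 575.5 in N2_Cd, 1223 in N2_Zn and 1000.6 in N2_Cd_Zn, against 128.2 in N0, 101.7 in N0_Cd, 160.2 in N0_Zn and 152.6 in N0_Cd_Zn. The N2 and N0 values did not overlap, and the 2 N2 libraries with Zn were the highest of all. Its ratio was the smallest without metal, at 4.11, close to the threshold of 4.

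TRIAE_CS42_2AL_TGACv1_094481_AA0298560, on arm 2AL, came next in mean FPKM. It had 199.9 FPKM in N2 and 315.1 in N2_Cd, 397.3 in N2_Zn and 440.7 in N2_Cd_Zn, against 34.3 in N0, 41.2 in N0_Cd, 33.8 in N0_Zn and 18.3 in N0_Cd_Zn. With both metals its N2 level was the highest and its N0 level the lowest, which gave a ratio of 24.0 there, against 5.83 without metal. All 7 members of at least 100 FPKM kept every N2 library above every N0 library, which follows largely from the rule. The same held for 92.0% of all members and 8.50% of all 51500 genes. The summed CPM of the 7 was 1874.1 in N2 and 2796.1 in N2_Cd, 3661.1 in N2_Zn and 3608.6 in N2_Cd_Zn, against 325.4 in N0, 352.2 in N0_Cd, 308.7 in N0_Zn and 275.1 in N0_Cd_Zn.

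The Ca/K ratios of the members were larger in the pairs with Zn than in those without. The median ratio was 7.83 for N2 over N0 (interquartile range 5.46 to 13.7) and 7.52 for N2_Cd over N0_Cd (5.31 to 12.6). It was 12.7 for N2_Zn over N0_Zn (7.39 to 28.6) and 15.7 for N2_Cd_Zn over N0_Cd_Zn (8.51 to 28.4). The largest of a member's 4 ratios fell in the pair with both metals for 124 members, in the pair with Zn alone for 110, in the pair without metal for 34 and in the pair with Cd alone for 32. Among all 51500 genes, a ratio of 4 or more was found for 6.62% in N2 over N0, 3.27% under Cd, 12.0% under Zn and 10.9% under both metals. The 2 pairs with Zn therefore held more such genes throughout the table as well, and the rule fixes that all 300 members reach 4 in each pair. Ratios of 1/4 or less, which the rule leaves no member, were found for 3.24% of all genes without metal, 2.88% under Cd, 4.50% under Zn and 6.62% under both.

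**Figure D2:**
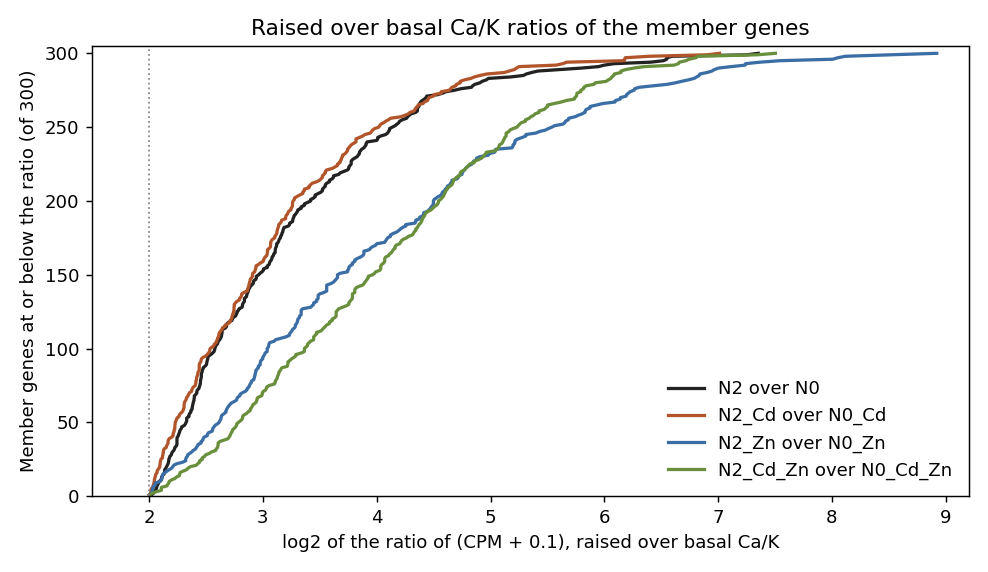
Number of members at or below a given log2 ratio of (CPM + 0.1), raised over basal Ca/K, with 1 line for each of the 4 pairs and a dotted line at the rule's threshold of 4-fold. The lines for N2 over N0 and N2_Cd over N0_Cd run close together (medians 7.83 and 7.52), and those of the 2 pairs with Zn lie to their right (12.7 and 15.7).

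Part of the difference without metal went with the scaling of the libraries. The median log2 ratio of all 51500 genes was 0.26 for N2 over N0 and 0.18 for N2_Zn over N0_Zn, but 0.03 under Cd. With TMM scaling, which sets the bulk of genes to equal levels, these became 0.02, 0.00 and 0.01, and the members' median ratios became 6.61 without metal, 7.41 under Cd, 11.6 under Zn and 15.5 under both metals. Of the 300 members, 247 met the whole rule on TMM-scaled CPM.

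Most members separated the Ca/K levels across metal treatments too. In 276 of 300 every N2 library lay above every N0 library, against 8.50% of all 51500 genes, and in 118 the lowest N2 library was 4-fold or more above the highest N0 library, against 0.268%. These counts follow largely from the rule and are given as a description. In the other 24 members the ranges overlapped. A member's 4 ratios differed among themselves by a median of 4.76-fold from lowest to highest. They stayed within 2-fold of each other in 34 members and differed by 8-fold or more in 91.

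The pair of members with the largest smallest ratio had smallest ratios above 20. TRIAE_CS42_7BL_TGACv1_577121_AA1866510 had 320 counts in N2 and 505 in N2_Cd, 407 in N2_Zn and 697 in N2_Cd_Zn, against 12 in N0, 18 in N0_Cd, 7 in N0_Zn and 5 in N0_Cd_Zn. Without added values, the fold of N2 over N0 was 25.9 (95% counting interval 14.6 to 50.6) and that of N2_Cd_Zn over N0_Cd_Zn was 150.0 (64.0 to 463.3). Even its highest N0 count, 18, lay far below its lowest N2 count, 320. TRIAE_CS42_4AL_TGACv1_290056_AA0980960 had 49, 177, 53 and 113 counts in N2, N2_Cd, N2_Zn and N2_Cd_Zn, against 0, 3, 0 and 2 counts in N0, N0_Cd, N0_Zn and N0_Cd_Zn. Where its N0 libraries had no read, the 95% counting interval of the fold had a lower limit of 12.4 for N2 over N0 and of 16.0 for N2_Zn over N0_Zn. Smallest ratios of 8 or more were found in 47 members and of 16 or more in these 2 alone, while 121 members lay between 4 and 5.

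The members with the fewest basal reads relative to their raised reads had at most 1 count in any N0 library. TRIAE_CS42_7AS_TGACv1_571828_AA1850170 had 46 counts in N2 and 33 in N2_Cd, 271 in N2_Zn and 35 in N2_Cd_Zn, against 1 count in N0 and 0 in each of the other N0 libraries. The fold of N2 over N0 was 44.6 with an interval of 7.62 to 1800.4, and that of N2_Zn over N0_Zn, where N0_Zn had no read, had a lower limit of 84.3. TRIAE_CS42_6AL_TGACv1_473324_AA1530160 had 58, 218, 15 and 50 counts in N2, N2_Cd, N2_Zn and N2_Cd_Zn, against 1, 1, 0 and 0 in N0, N0_Cd, N0_Zn and N0_Cd_Zn. Among the N2 libraries, N2_Zn was the highest for TRIAE_CS42_7AS_TGACv1_571828_AA1850170 and the lowest for TRIAE_CS42_6AL_TGACv1_473324_AA1530160.

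Other members differed far more between Ca/K levels under one metal than otherwise. TRIAE_CS42_7AL_TGACv1_558970_AA1797200 had 5.46 CPM in N2 and 22.2 in N2_Cd, 48.4 in N2_Zn and 9.50 in N2_Cd_Zn, against 0.827 in N0, 3.16 in N0_Cd, 0 in N0_Zn and 0.279 in N0_Cd_Zn. Its ratios were 5.99 without metal, 6.83 under Cd, 484.6 under Zn and 25.3 under both, the widest spread of any member. Zn went with its highest level at raised supply and with no read at basal supply. TRIAE_CS42_5AL_TGACv1_376614_AA1239070 had the next widest spread, with ratios of 4.75, 13.5, 257.5 and 13.8 in the same order. Its Zn pair stood apart too, with 783 counts in N2_Zn against 1 count in N0_Zn.

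Genes on both sides of the threshold had nearly equal ratios. TRIAE_CS42_5AL_TGACv1_374154_AA1191900 had a smallest ratio of 4.00 (under Cd) and TRIAE_CS42_1BL_TGACv1_038586_AA0148000 one of 4.01 (under Zn), and both are members. TRIAE_CS42_3B_TGACv1_220996_AA0726290 reached 3.99 (under both metals) and TRIAE_CS42_3AL_TGACv1_198073_AA0667900 3.98 (under Zn), and both are not. The 48 genes left out by the limit of 300 had mean CPM between 1.01 and 1.82, and their median smallest ratio of 5.28 was close to the 5.33 of the members. A further 922 genes reached 4-fold in exactly 3 pairs. The pair that fell short was the Cd pair for 456 of them, the pair with both metals for 221, the pair without metal for 177 and the Zn pair for 68. In the pair that fell short, the ratio was under 1 for 108 of the 456, 111 of the 221, 15 of the 177 and 4 of the 68. The opposite pattern, 4-fold or more lower in all 4 pairs, was met by 103 genes.

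The rule compared no metal library with a metal-free one, but it used the same 8 libraries. It required each N2 metal library to be at least 4-fold above its N0 counterpart. The metal ratios of the members can therefore follow in part from the rule, and their shares beside all genes are a description. At raised Ca/K supply the members as a group were higher with metal than without. Beside N2, the median log2 ratio of the members was 0.67 in N2_Cd, 0.50 in N2_Zn and 0.69 in N2_Cd_Zn, against -0.17, -0.19 and -0.10 over all 51500 genes. In N2_Cd, 115 members (38.3%) were 2-fold or more higher than in N2, against 9.53% of all genes, and 25 were lower, against 13.0%. In N2_Zn, 96 members (32.0%) were higher, against 6.95%, and 24 lower, against 12.5%. In N2_Cd_Zn, 109 members (36.3%) were higher, against 9.80%, and 30 lower, against 14.2%. The 3 comparisons share the N2 library, and each sets 1 library against 1, so no test applies. TMM scaling moved the members' medians to 0.85, 0.70 and 0.81 and those of all genes to between 0.01 and 0.02. It scales all genes of a library alike, so the gap between members and all genes could hardly change and is no check.

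**Figure D3:**
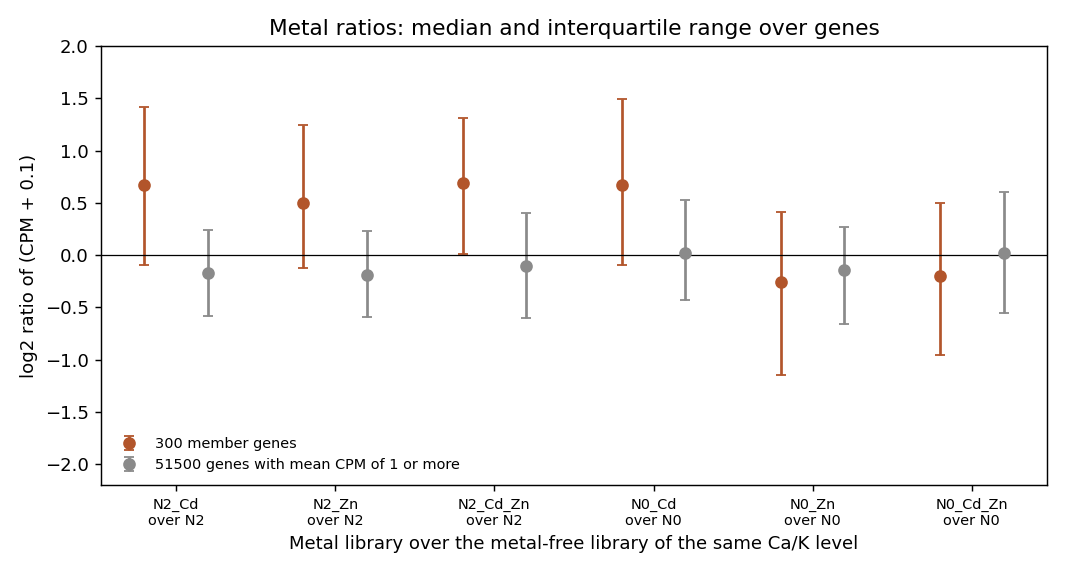
Median (point) and interquartile range (bar) over genes of the log2 ratio of (CPM + 0.1) between each metal library and the metal-free library of the same Ca/K level, for the 300 members (orange) and for all 51500 genes with a mean of 1 CPM or more (grey). The members' medians lie between 0.50 and 0.69 in the 3 N2 comparisons and at 0.67 in N0_Cd over N0, but at -0.26 and -0.20 in the N0 comparisons with Zn.

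In 89 members (29.7%) all 3 metal libraries lay within 2-fold of N2, against 60.7% of all genes. All 3 were 2-fold or more higher in 41 members (13.7%, against 2.39% of all genes) and lower in 6 (2.0%, against 4.78%). A further 124 members (41.3%, against 12.6%) were higher with 1 or 2 of the metal treatments and lower with none. Another 30 (10.0%, against 18.0%) were lower with 1 or 2 and higher with none, and 10 (3.33%, against 1.55%) were higher with some and lower with others. The 41 members higher with every metal treatment had a median of 19.8 CPM in N2_Cd, 18.9 in N2_Zn and 12.6 in N2_Cd_Zn, against 3.69 in N2. Their median was 2.56 CPM in N0_Cd, 0.753 in N0_Zn and 0.372 in N0_Cd_Zn, against 0.455 in N0. Of the 4 N0 medians of these 41, that of N0_Cd was the highest.

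At basal Ca/K supply the members' median was higher with Cd alone and not with Zn. Beside N0, the members' median log2 ratio was 0.67 in N0_Cd, against 0.02 over all genes, and 115 members (38.3%) were 2-fold or more higher, against 13.6%, and 16 lower, against 10.2%. In N0_Zn the median was -0.26, against -0.14 over all genes, with 41 members higher (13.7%, against 6.56%) and 84 lower (28.0%, against 17.1%). In N0_Cd_Zn the median was -0.20, against 0.02, with 36 members higher (12.0%, against 14.7%) and 70 lower (23.3%, against 14.0%). These basal values depended on the added CPM and on the choice of members. With 1 added to each CPM, the lower members made up 9.67% in N0_Zn (against 10.4% of all genes) and 9.0% in N0_Cd_Zn (against 8.94%). The higher members made up 19.3% in N0_Cd (against 9.49%). The members' median in N0 was 1.1 CPM, and a member under 1 CPM there cannot be 2-fold lower at this setting. It therefore cannot decide whether the excess of lower members holds. In the 47 members with all ratios of 8 or more, the N0_Cd_Zn median turned to 0.10, with 23.4% higher and 12.8% lower. Compared with N0_Cd instead, N0_Cd_Zn had 144 members 2-fold or more lower (48.0%, against 19.1%) and 21 higher (7.0%, against 15.7%). Compared with N0_Zn it had 69 members higher (23.0%, against 26.3%) and 59 lower (19.7%, against 17.7%). Among the 4 basal libraries, N0_Cd was the highest for 166 of the 300 members, against 24.9% of all genes. N0_Zn was the lowest for 120 of the 300, a share close to the 37.0% of all genes. Among the 4 raised libraries, N2 was the lowest for 161 of the 300 members, against 19.0% of all genes, and the highest for 33, against 38.1%.

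Some members had the same metal difference at both Ca/K levels, and others had opposite ones. With Cd alone, 75 members (25.0%) were 2-fold or more higher at both levels, against 5.32% of all genes, and 7 (2.33%) were lower at both, against 5.68%. With Zn alone, 29 members (9.67%) were 2-fold or more higher at raised supply and 2-fold or more lower at basal supply, against 1.75% of all genes. The reverse was found in 2 (0.667%), against 0.610%. The first pattern widens the ratio of N2_Zn over N0_Zn, which the rule requires, and the reverse narrows it. These Zn counts therefore follow in part from the rule.

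The members that differed most with Cd at raised supply spanned both directions. TRIAE_CS42_4AL_TGACv1_291365_AA0994230 had 90.3 CPM in N2_Cd, 1.14 in N2_Zn and 3.90 in N2_Cd_Zn, against 2.29 in N2, and between 0.0396 and 0.600 CPM in the N0 libraries. Its N2_Cd level was 39.5 times that of N2 (95% counting interval 30.3 to 52.3) and stood alone among the 8. TRIAE_CS42_5AL_TGACv1_377824_AA1249720 had 41.7 CPM in N2_Cd against 1.04 in N2, and 3.52 CPM in N0_Cd against 0.165 in N0, so that Cd went with the highest level at either supply. TRIAE_CS42_3B_TGACv1_226118_AA0814050 had 1.61 CPM in N2_Cd against 60.4 in N2, and 0.0800 CPM in N0_Cd against 5.17 in N0. TRIAE_CS42_U_TGACv1_642890_AA2124500, without an arm, had 3.95 CPM in N2_Cd against 80.5 in N2, and 0.440 CPM in N0_Cd against 12.8 in N0. For these 2 genes Cd went with a much lower level at both Ca/K supplies. Zn did so at basal supply too. The 3B gene had 0 CPM in N0_Zn and 0.837 in N0_Cd_Zn, and the gene without an arm had 2.42 and 2.18. At raised supply N2_Zn had 18.5 CPM for the 3B gene, below N2, and 93.1 for the gene without an arm, above N2.

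With Zn at raised supply, the 2 members with the highest ratios over N2 carry a 7AL code. TRIAE_CS42_7AL_TGACv1_558970_AA1797200, described above for its Zn pair, had an N2_Zn level 8.86 times that of N2 (interval 7.41 to 10.7). TRIAE_CS42_7AL_TGACv1_558392_AA1793090 had 110.4 CPM in N2_Zn, 51.2 in N2_Cd and 34.0 in N2_Cd_Zn, against 13.0 in N2. At basal supply it had 5.35 CPM in N0_Zn, 12.4 in N0_Cd and 0.465 in N0_Cd_Zn, against 3.06 in N0. Its highest basal library, N0_Cd, nearly reached its lowest raised one, N2. TRIAE_CS42_6AL_TGACv1_472117_AA1517910 had 1.01 CPM in N2_Zn, 3.54 in N2_Cd and 4.55 in N2_Cd_Zn, against 36.4 in N2. TRIAE_CS42_3AL_TGACv1_194246_AA0629570 had 0.733, 1.47 and 1.20 CPM in N2_Zn, N2_Cd and N2_Cd_Zn, against 13.8 in N2. These 2 members were high in N2 alone and had the lowest ratios in N2_Cd_Zn over N2 as well.

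With both metals at raised supply, TRIAE_CS42_2BS_TGACv1_147113_AA0478190 was the furthest above N2. It had 20.6 CPM in N2_Cd_Zn, 11.7 in N2_Cd and 1.65 in N2_Zn, against 1.85 in N2, and its level with both metals was 11.2 times that of N2 (interval 8.22 to 15.5). TRIAE_CS42_3AS_TGACv1_211670_AA0692840 had 100.3 CPM in N2_Cd_Zn, 36.3 in N2_Cd and 27.8 in N2_Zn, against 14.8 in N2. Set against the single metals instead, N2_Cd_Zn had 43 members 2-fold or more higher than N2_Cd (14.3%, against 11.0% of all genes) and 63 lower (21.0%, against 11.8%), and 51 higher than N2_Zn (17.0%, against 9.23%) and 38 lower (12.7%, against 7.55%). In TRIAE_CS42_2BS_TGACv1_147113_AA0478190 the 2 libraries with Cd were high, while in TRIAE_CS42_3AS_TGACv1_211670_AA0692840 each metal library was above N2.

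**Figure D4:**
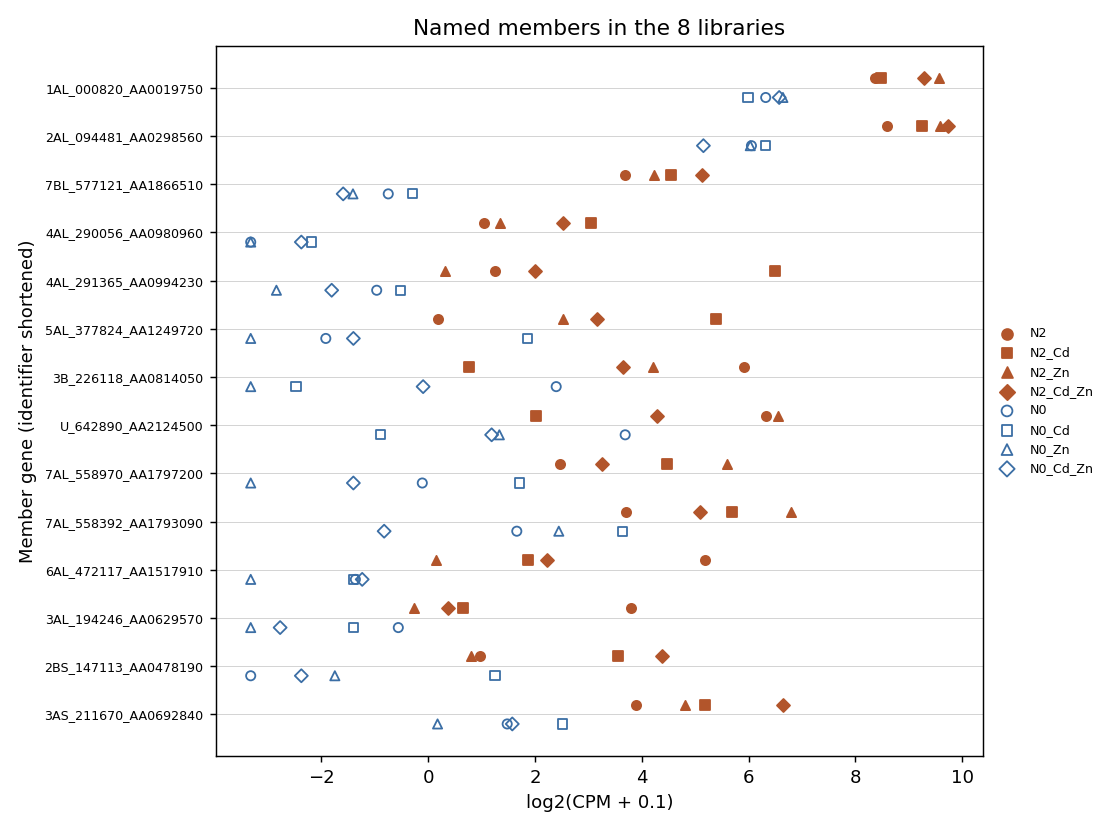
CPM of 14 named members as log2(CPM + 0.1) in the 8 libraries, with filled orange symbols for raised and open blue symbols for basal Ca/K and 1 symbol shape per metal treatment. Within a symbol shape the filled mark lies at least 4-fold to the right of the open one by the rule, while the order of the metal treatments differs from gene to gene.

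Across all 8 libraries, a Cd and a Zn effect could be fitted for each gene, because Cd and Zn are crossed with Ca/K. The members were chosen from the same 8 libraries. The rule limits their Ca/K by metal differences, which are part of the residual spread. Here and below, shares of members beside those of all genes are therefore a description and not a test of the set. With edgeR's quasi-likelihood test on all 64580 genes that passed the low-count filter, 0 of the 300 members had an adjusted p under 0.05 for Cd, and likewise 0 for Zn and 0 for the Cd by Zn interaction, as was so for 0.00% of all genes in each case. At an unadjusted p under 0.05 the Cd effect held 32 members (10.7%), against 2.97% of all genes. Of these, 26 were higher (against 1.92%) and 6 lower (against 1.05%). The Zn effect held 25 members (8.33%), against 1.97%, of which 11 were higher (against 0.669%) and 14 lower (against 1.30%). The median log2 effect over the members was 0.36 for Cd and -0.09 for Zn, and both rested on single libraries. The Cd median was 0.07 without N2, 0.12 without N0_Cd, 0.59 without N0_Cd_Zn and 0.635 without N2_Zn. The Zn median was -0.39 without N2 and -0.29 without N2_Zn, and turned positive without N0_Cd_Zn (0.14) and without N0_Cd (0.04). In this design the residual spread consists of differences between treatments, not of replicates.

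DESeq2 on the same genes gave 6 members an adjusted p under 0.05 for Cd (2.0%, against 0.449% of all genes), 5 of them higher (against 0.387%) and 1 lower (against 0.0619%). It gave 7 for Zn (2.33%, against 0.245%), 3 higher (against 0.0573%) and 4 lower (against 0.187%). At an unadjusted p under 0.05, DESeq2 held 52 members for Cd (17.3%, against 5.23%) and 41 for Zn (13.7%, against 3.65%). The lower one for Cd was TRIAE_CS42_U_TGACv1_642890_AA2124500, with a DESeq2 log2 fold change of -3.10 and an adjusted p of 0.00632, against an edgeR adjusted p of 1. Limma on log2(FPKM + 1) gave 0 members for Cd and 0 for Zn, with 31 (10.3%, against 3.15% of 54198 genes) and 21 (7.0%, against 2.17%) at an unadjusted p under 0.05.

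The Cd by Zn term is negative where the level with both metals falls short of what the single metals add up to on the log scale. Its median over the members was -0.94 in edgeR, against 0.03 over all genes, and it was positive in 80 of 300 members. At an unadjusted p under 0.05 there were 45 members (15.0%, against 7.62% of all genes), 38 of them negative (against 2.57% of all genes) and 7 positive (against 5.05%). Single libraries moved this count: it was 16 without N2 (5.33%, against 2.74%), 23 without N0_Cd (7.67%, against 2.84%) and 110 without N2_Cd_Zn (36.7%, against 27.2%). Without N2_Zn the median over the members was -0.44 and the term was positive in 126 of 300, so most members stayed negative. Among the members at an unadjusted p under 0.05, negative ones were then no longer the majority. Their share there was still larger than among all genes at that threshold. In that fit N0_Zn was the only library with Zn alone, so the term rested in part on that 1 library. DESeq2 gave 9 members an adjusted p under 0.05 (3.0%, against 2.31%), 6 negative (against 0.384%) and 3 positive (against 1.93%), with 67 at an unadjusted p under 0.05 (22.3%, against 10.9%). Limma gave 0 for this term, with 34 at an unadjusted p under 0.05 (11.3%, against 7.02%). Only when N2_Cd_Zn was left out did edgeR's test call any members, and it then called genes outside the set as well. The median over the members was then -1.60. In that fit N0_Cd_Zn was the only library with both metals, so the term and its calls rested on that 1 library.

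A codes made up a larger share of the members than of all 51500 genes, a description with no test. Of the 300, 141 (47.0%) carry an A code and 117 (39.0%) a B code, against 37.9% and 39.6% of the 51500 genes. A D code was found in 10 (3.33%, against 5.19%), the code U in 14 (4.67%, against 3.50%) and a serial number only in 18 (6.0%, against 13.9%). The Ca/K ratios of A and B members were alike, with medians of 8.02 and 7.69 without metal and 17.3 and 16.3 with both. The 18 members with a serial number only had medians of 9.55 without metal and 7.84 with both metals, and median log2 metal ratios near 0 (-0.13 for N2_Cd over N2 and -0.04 for N2_Cd_Zn over N2). Their median mean FPKM was 15.7, against 4.27 for A and 6.34 for B members. The most abundant of them, Novel06280, chosen after its values were seen, had 133.0 FPKM in N2 and 160.0 in N2_Cd, 251.8 in N2_Zn and 170.8 in N2_Cd_Zn, against 2.67 in N0, 3.15 in N0_Cd, 20.7 in N0_Zn and 7.26 in N0_Cd_Zn.

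Tetraploid wheat lacks the D subgenome, and the source of reads on the 10 D members was not tested. The most abundant of them, TRIAE_CS42_5DL_TGACv1_433502_AA1414930, also chosen after its values were seen, had between 99.4 and 161.3 FPKM in the N2 libraries, against 8.88 to 20.9 in the N0 libraries. The D members' median ratios were 6.30 without metal, 7.65 under Cd, 12.4 under Zn and 10.8 under both metals. They were below those of A and B members in 3 pairs, but under Cd lay between the 8.21 of A and the 7.03 of B members.

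By arm, 4AL held the most members, 23 of its 1666 expressed genes or 1.38 per 100, against 0.583 per 100 in all. Arm 7BL followed among arms with at least 500 such genes, with 15 of 1589 or 0.944 per 100, and 1BS held the fewest, with 1 of 760 or 0.132 per 100. The 23 members of 4AL had median ratios of 9.76 without metal, 9.85 under Cd, 11.2 under Zn and 14.0 under both metals, so the pairs differed less there than over all members.

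**Figure D5:**
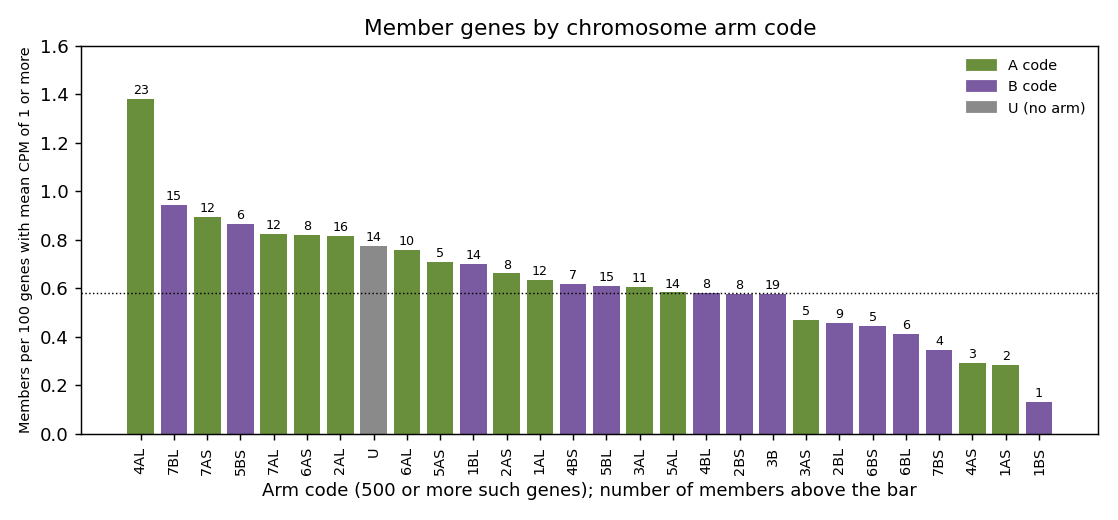
Members per 100 genes with a mean of 1 CPM or more on each arm code with at least 500 such genes (bars; A codes green, B codes purple, U grey), with the number of members above each bar and the value of 0.583 over all genes as a dotted line. Arm 4AL stands highest at 1.38 and 1BS lowest at 0.132.

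Some members lie side by side. The 282 members with a scaffold lie on 274 scaffolds, of which 8 hold 2 members each, and in 7 of these 8 pairs no other identifier of the table falls between the 2 members. On 7BL, TRIAE_CS42_7BL_TGACv1_577121_AA1866510, the member with the largest smallest ratio, is paired with TRIAE_CS42_7BL_TGACv1_577121_AA1866500, which had 45 counts in N2 and 176 in N2_Cd, 156 in N2_Zn and 204 in N2_Cd_Zn, against 1, 10, 5 and 4 in N0, N0_Cd, N0_Zn and N0_Cd_Zn. Both were highest in N2_Cd_Zn, and whether such neighbours are separate genes or share reads was not tested. The 269 other expressed genes on scaffolds of members had a median log2 Ca/K ratio, averaged over the 4 pairs, of 0.20, against 0.13 over all genes, and 30.1% of them reached 4-fold in at least 1 pair, against 22.3%. Members were also shorter than expressed genes as a whole, with a median length of 1549 bases (interquartile range 1166.2 to 2097.7), against 1809 (1280.0 to 2512.0).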

How the data were processed

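Per the labels' protocols, a TruSeq kit (Illumina) served to build libraries from Trizol-extracted root RNA, while the design text of the series speaks of long reads. Bowtie2 2.0.6 and TopHat2 2.0.12 are named in the submitters' processing notes. How reads were counted, the strand setting, the build and the annotation are not stated by the labels or headers. The deposited counts are raw reads per gene, made by the authors, with 1 column per treatment; whether the 3 stated replicates were pooled is not given. From the deposited FPKM values, each gene's count divided by its FPKM and by the library total gave a gene length, which came out whole (largest relative deviation 2.3e-14). All columns were matched to treatments by name, and 0 were left out.

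Ratios and shares were computed in Python 3.11.15. CPM used column sums. Metal effects were tested with edgeR 4.0.16 in R 4.3.3 (TMM, filterByExpr with a minimum count of 10, robust quasi-likelihood fit) on a model of Ca/K, Cd and Zn with 4 residual degrees of freedom, to which Cd by Zn was added with 3 left. Benjamini-Hochberg adjustment ran over all genes. The script was tested on simulated data with a Cd effect but no Ca/K effect and no interactions. That check therefore does not speak to error rates in these libraries, where the residual spread holds interactions. Alternatives were size factors, no filter, each library left out, limma 3.58.1 on log2(FPKM + 1) of genes with mean FPKM of at least 0.5, DESeq2 1.42.0 and other settings of the rule. Counting intervals (95%, exact) cover counting error only.

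The members, lists and comparisons were chosen with earlier results of these data known. Named members are at most 2 each for the highest mean FPKM, the highest and lowest smallest ratio, the highest and lowest ratio of each N2 metal library over N2 (at least 10 CPM in 1 of the 2), the widest spread of ratios and the fewest N0 reads relative to N2. Identifiers lack names, so gene lists by function were not run, and no sequences were used here.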

Additional observations from a re-analysis of the deposited data

Results flagged for a closer look

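The members' median response to a metal had opposite signs at the 2 Ca/K levels in comparisons with Zn. For Zn alone the median log2 ratio was 0.50 in N2_Zn over N2 and -0.26 in N0_Zn over N0. For both metals it was 0.69 in N2_Cd_Zn over N2 and -0.20 in N0_Cd_Zn over N0, but the N0_Cd_Zn median was 0.10 in the 47 members with all ratios of 8 or more, where the signs were no longer opposite. With 1 added to each CPM, the basal medians were -0.08 in both comparisons. The difference between the levels was not tested, because the Ca/K rule had used all 4 pairs and each treatment has 1 library. Over all 51500 genes the same medians were -0.19 and -0.14 for Zn and -0.10 and 0.02 for both metals. For Cd alone the members' median was 0.67 at both levels.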

How the results depend on the processing

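The number of genes passing the member rule was 348, and it lay within 1.5 times of that with TMM scaling (290), size factors (284), 0.01 added to each CPM (402), a minimum mean of 0.5 (380) or 2 (292) CPM or none (387), deposited FPKM (294, of which 288 shared) and without the Zn pair (416). It was 126 with 1 added to each CPM, 609 with a ratio of 3, 57 with a ratio of 8, and 525, 804 and 569 without the pair lacking metal, the Cd pair or the pair with both metals. Members called numbered 0 for Cd, Zn and the interaction, against 6, 7 and 9 with DESeq2. Leaving out 1 library gave between 0 and 0 for Cd and for Zn, and between 0 and 20 for the interaction. Members at an unadjusted p under 0.05 numbered 84 for Cd (28.0%, against 10.1% of all genes) and 46 for Zn (15.3%, against 13.2%) without N0_Cd_Zn, and 63 (21.0%, against 4.81%) and 46 (15.3%, against 3.08%) without N2_Zn. With 1 added to each CPM, the percent of members 2-fold higher and lower was 19.3 and 2.33 in N0_Cd over N0 (all genes 9.49 and 6.49, members' median log2 ratio 0.37), 5.0 and 9.67 in N0_Zn over N0 (all genes 3.89 and 10.4), and 3.0 and 9.0 in N0_Cd_Zn over N0 (all genes 10.9 and 8.94). A member under 1 CPM in N0 cannot be 2-fold lower at this setting, so it cannot decide on the excess of lower members at basal Zn. For the 47 members with all ratios of 8 or more, the median was 1.02 in N0_Cd over N0; in N0_Cd_Zn over N0 it turned to 0.10, with 23.4% higher and 12.8% lower. The remaining 61 of 72 values of metal ratios stayed within 1.5 times, or within 0.25 for a log2 median. The causes were not tested. No paired analysis was possible because each treatment has 1 library and no number shared beyond it. Low N0 counts limit the precision of single ratios.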
